A study of Mus musculus with 7 samples.

Results

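miR-143 and miR-145a are 2 small RNA hairpins that lie next to each other on the same strand and are made from a common primary transcript, and they are best known from the smooth muscle cells of blood vessel walls. Their mature products were followed in RNA bound to Argonaute-2 (Ago2) in mouse plasma. Members were chosen by name as every counted mature miRNA of the hairpins miR-143, miR-145a and miR-145b, from either arm. This gave 4 members of the 640 mature miRNAs counted, namely miR-143-3p, miR-143-5p, miR-145a-5p and miR-145a-3p. miR-145b had no row in the counts and was not analysed here.

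Ago2 was immunoprecipitated from plasma of adult male C57BL/6JOlaHsd mice, labelled c57, and the small RNA it held was sequenced. Status epilepticus (SE), a prolonged seizure, was triggered by kainic acid (KA) injected into the amygdala, and control mice received PBS in the same way. The 7 libraries were 3 controls, taken at 4, 8 and 24 h, and 4 from SE mice, at the same times and at 2 weeks. Each library was 1 pool of plasma from 10 mice, so differences between animals cannot be seen and no condition has a replicate. A benzodiazepine (midazolam or lorazepam) was given after KA, and whether control mice received it is not stated in the paper. No control of 2 weeks was used here, and the 2-week SE library was compared with the 24 h control, so the 24 h and 2-week comparisons share a control.

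In smooth muscle, serum response factor and its partner myocardin drive transcription of the cluster, and both miRNAs help to keep the contractile state of the cell by repressing regulators of its growth and cytoskeleton. Each hairpin yields a 5p and a 3p strand, and usually one of them is loaded into Argonaute while the other is discarded. For miR-143 the loaded strand is generally the 3p arm, and for miR-145 the 5p arm. Plasma is cell-free, and these counts carry no record of the tissue from which an miRNA came. The smooth muscle label therefore rests on where the cluster is known to be expressed and could not be checked here. The study that reported these data lists miR-143-3p under brain and astrocytes, and miR-145a-5p under heart and astrocytes, from published reports. Those labels could not be checked here either.

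Total counts were between 2043220 in control 4 h and 5405357 in SE 4 h. miR-486b-5p, an miRNA abundant in red cells, took between 62.5% and 76.1% of each library. Levels are therefore given as CPM (counts scaled to a common library total) with the totals adjusted by TMM, a scaling computed over all 7 libraries. The adjustment factor was lowest in SE 24 h (0.754) and highest in control 8 h (1.22). Low counts gathered around a value specific to each library, from 33.1 counts (SE 2 weeks) up to 102 counts (control 4 h), and this value was taken as the reads that 1 captured molecule gave. Intervals cover the error of counting reads only and are narrower than an interval on captured molecules or on repeated pools would be.

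miR-143-3p was one of the most abundant miRNAs of plasma Ago2 and was highest in SE 4 h. The controls of 4, 8 and 24 h had 22544, 50304 and 41610 raw counts of it, in that order. The SE libraries of the same times had 175885, 71495 and 36258 raw counts, and SE 2 weeks had 50659. Among all counted miRNAs its rank ran from 3rd (SE 4 h) to 10th (control 24 h).

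In the controls of 4 and 8 h, miR-143-3p was at 12938 CPM (95% exact Poisson interval 12769 to 13108) and 11666 CPM (11564 to 11768). Control 24 h had 10545 CPM (10443 to 10646). SE 4 h reached 41308 CPM (41115 to 41502), followed by 19631 CPM (19487 to 19775) for SE 8 h, 12929 CPM (12797 to 13063) for SE 24 h and 16409 CPM (16267 to 16553) for SE 2 weeks. Thus SE 4 h, SE 8 h and SE 2 weeks were each above all 3 controls, while SE 24 h lay between controls. The control mean was 11716 ± 1197 CPM (SD, n = 3 time-points), and the highest control was 1.23-fold above the lowest. The 4 SE libraries spanned 3.19-fold.

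Ordered by level, the libraries ran from control 24 h through control 8 h, SE 24 h, control 4 h, SE 2 weeks and SE 8 h to SE 4 h. SE 24 h and control 4 h differed by less than their counting intervals. The steps of 1.11-fold from control 24 h to control 8 h, 1.11-fold from control 8 h to SE 24 h and 1.20-fold from SE 2 weeks to SE 8 h were no larger than the 1.23-fold span of the controls. The step from control 4 h to SE 2 weeks, 1.27-fold, was slightly above that span, and SE 4 h stood 2.10-fold above SE 8 h.

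**Figure D1:**
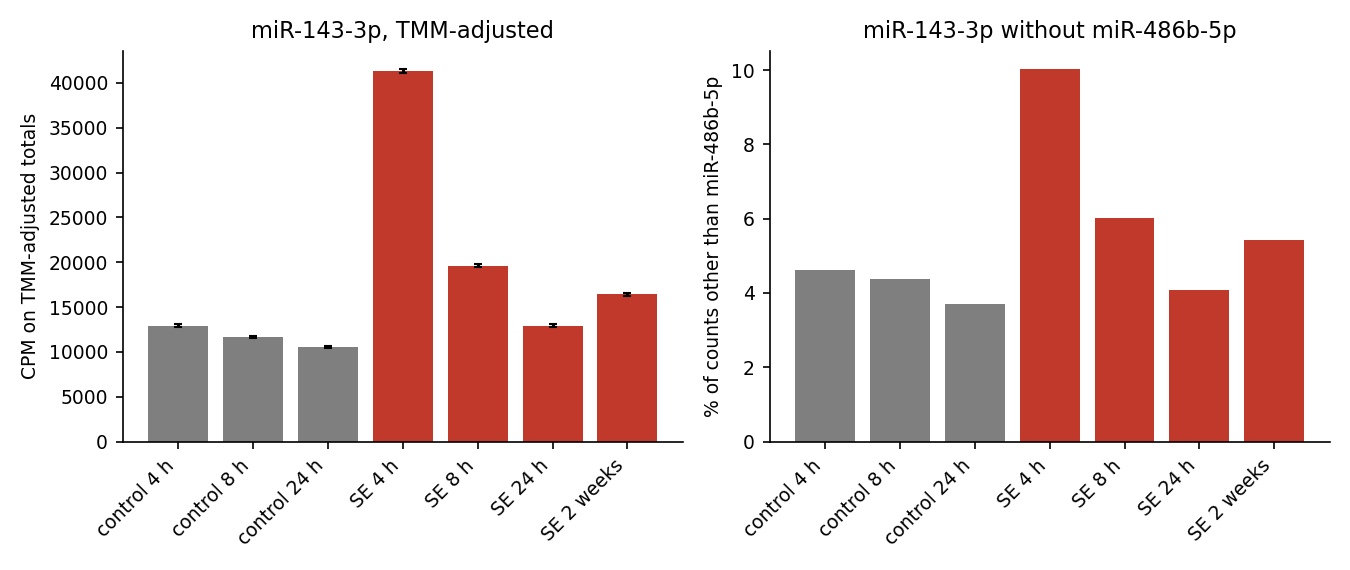
Level of miR-143-3p in each of the 7 libraries. The left panel gives CPM on TMM-adjusted totals, with bars from 0 and error bars as 95% exact Poisson intervals for counting error. The right panel gives percent of all counts other than miR-486b-5p. Grey bars are controls and red bars are SE; SE 4 h is the highest library in both panels, at 41308 CPM and 10.0%.

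As a share of all counts in the library, miR-143-3p made up 1.10%, 1.43% and 1.22% of controls at 4, 8 and 24 h. Its shares at the same times after SE were 3.25%, 2.26% and 0.975%, and the 2-week share was 1.99%. The lowest of all 7 values was SE 24 h, a library in which miR-486b-5p took 76.1% of counts, against 67.0% in control 24 h. Leaving miR-486b-5p out of the total put SE 24 h at 4.08%, within the control range of 3.69% to 4.61%.

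The other products of the cluster were present at very low levels. miR-143-5p, the arm opposite miR-143-3p, had 68 counts in control 24 h and 0 counts in each of the other 6 libraries. The controls of 4, 8 and 24 h had 90, 28 and 0 counts of miR-145a-5p. After SE it had 53 counts at 4 h, then 96 at 8 h, and 0 in both later libraries. miR-145a-5p was therefore counted in 4 of 7 libraries, those of 4 h and 8 h. Of miR-145a-3p the same 3 controls had 0, 42 and 0 counts, and the 4 SE libraries, from the earliest to the latest, had 176, 63, 12 and 18. It was counted in 4 of 4 SE libraries and 1 of 3 controls.

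Most of these values lay close to the count that 1 captured molecule gave. Divided by it, miR-145a-5p was at 0.880 and 0.465 in the controls of 4 and 8 h, and at 1.41 and 1.85 in SE at those times. The highest value of miR-145a-3p on this scale was 4.68 in SE 4 h. miR-143-3p ran from 220 (control 4 h) to 4681 (SE 4 h). A library at 0 counts allows up to 3 captured molecules, which would be 99.3 reads in SE 2 weeks and 307 reads in control 4 h, or 26.5 CPM (SE 4 h) to 176 CPM (control 4 h). A 0 in these members is therefore not read as absence, and no fold is given against it.

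**Figure D2:**
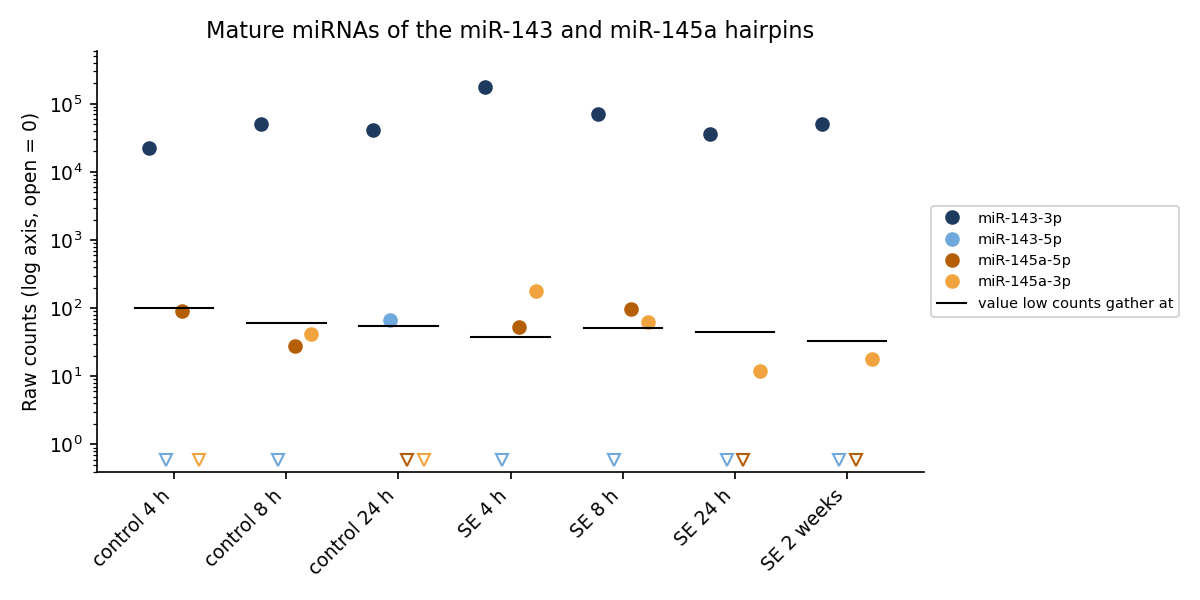
Raw counts (log axis) of the 4 mature members in the 7 libraries; open triangles mark 0 counts and black bars the value at which low counts gathered in that library. The lowest count of miR-143-3p is 22544, and the highest count of any other member is 176, for miR-145a-3p in SE 4 h.

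Hairpins cut from one primary transcript start in equal number, so the levels of the members were compared within each library, where scaling between libraries plays no part. A ratio of counts need not equal a ratio of molecules. The ratio of miR-143-3p to miR-145a-5p was 250 (95% interval 204 to 312) in control 4 h and 1797 (1243 to 2704) in control 8 h. It was 3319 (2537 to 4430) for SE at 4 h and 745 (610 to 920) for SE at 8 h. In the libraries with no miR-145a-5p, taking 3 captured molecules as the most that 0 counts allow, the ratio was at least 252 for control 24 h, 268 for SE 24 h and 510 for SE 2 weeks. Over the 7 libraries summed, there were 448755 counts of miR-143-3p and 267 of miR-145a-5p, a ratio of 1681 (1491 to 1902).

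The ratio of both arms of miR-143 to both arms of miR-145a was 777 (716 to 844) in the summed libraries. By library it was 250, 719 and at least 252 in the controls, from the earliest to the latest. The SE ratios were 768 at 4 h, then 450 at 8 h, 3022 at 24 h and 2814 in the last library, where miR-145a had 12 and 18 counts. The hairpin miR-143 was thus ahead in every library. Because the miR-145a counts correspond to few captured molecules, or to less than 1, these intervals understate the error and no difference in ratio between SE and control is read from them.

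The arms of the hairpins also differed. miR-143-3p exceeded miR-143-5p by 612 (483 to 788) in control 24 h, where the 68 counts of the 5p arm are close to the reads of 1 molecule. In the other 6 libraries it was ahead by at least 73.5 (control 4 h) to at least 1560 (SE 4 h), against 3 captured molecules. For miR-145a the arms were near balance, with 311 counts of the 3p and 267 of the 5p arm in all, a ratio of 1.16 (0.986 to 1.38). The 3p arm was ahead in SE 4 h, at 3.32 (2.43 to 4.60), and the 5p arm in SE 8 h, at 0.656 (0.470 to 0.911). In control 4 h the 5p arm had all 90 counts. Apart from the 3p arm in SE 4 h, each of these counts was within 2 captured molecules, so the order of the arms is given for reads only. No one arm of miR-145a was ahead in all of the libraries where it was counted.

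Hairpins within 10000 bp of each other on the same strand were then compared in the same way, a comparison chosen after the ratio for miR-143 and miR-145a had been seen. Of 521 hairpins in the counts, 447 were matched to a single locus in GENCODE M21, and 32 neighbouring pairs had a stronger member that reached 50 CPM over the pooled libraries. The median ratio of the stronger to the weaker hairpin was 11.7, and 7 pairs were above 100. miR-143 and miR-145a, at 777, ranked 3rd. The pairs above them were miR-182 over miR-96, with 30506 and 1 counts, a ratio too sparse to place, and miR-27b over miR-23b, with 196995 and 191 counts. miR-23b-3p closely resembles miR-23a-3p of another cluster, so reads may be divided between them. Arms were compared for the 63 hairpins that had both arms counted and a stronger arm of at least 50 CPM over the pooled libraries. Among them the arm ratio of miR-143 (6599) also ranked 3rd, against a median of 40.7. All 68 counts of its weaker arm came from control 24 h and equal about 1 captured molecule, so this rank is uncertain.

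**Figure D3:**
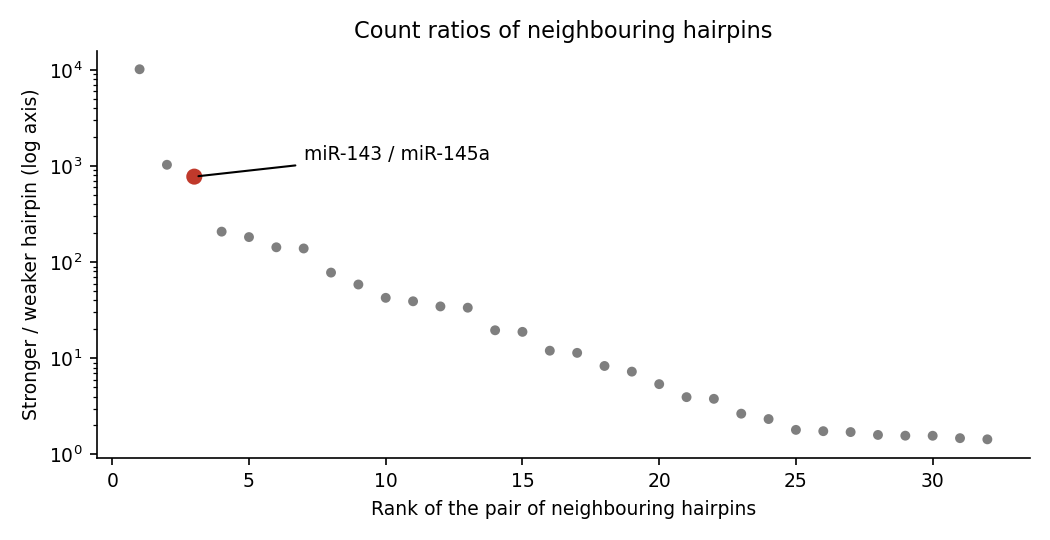
Ratio of counts, summed over 7 libraries, of the stronger to the weaker hairpin (log axis) in 32 pairs of neighbouring hairpins on one strand, ordered by rank. The red point is miR-143 over miR-145a, at 777 and rank 3; the weaker member of the first pair had 1 count, so its ratio, drawn against 3 counts, is too sparse to place.

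In the GRCm38 annotation, Mir143 lies on the minus strand of chromosome 18 at 61649196 to 61649258, and Mir145a at 61647825 to 61647894, with 1301 bp between them. In GENCODE M21 the long noncoding RNA gene Carmn, on the same strand, spans 61649625 to 61665537 and ends 366 bp before Mir143. RefSeq gives Carmn a span of 61645878 to 61665538, which takes in both hairpins. Mir145b lies 7372940 bp away from Mir143 on the same chromosome, outside the cluster.

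Changes after SE were computed for each time-point as the log2 fold change of 1 library against 1 library. An miRNA was called higher or lower at a change of at least 1.5-fold, provided that one of the libraries reached 50 CPM for it, and no p-value attaches to such a call. The same rule between pairs of controls called 59.3% of miRNAs for 8 h against 4 h, 69.6% for 24 h against 4 h and 45.4% for 24 h against 8 h. miR-143-3p was not among them. Its log2 differences between controls were -0.15, -0.30 and -0.15 in the same order. In high over low level across the 3 controls it was the 13th steadiest of 106 miRNAs that reached 50 CPM in each, at 1.23-fold against a median of 1.72-fold.

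At 4 h, miR-143-3p was 3.19-fold higher in SE than in control (log2 fold change 1.67, 95% counting interval 3.15- to 3.24-fold). Higher calls made up 32.3% of the 189 miRNAs tested, whose median log2 fold change was -0.057, and miR-143-3p had the 20th largest increase. Of the 121 miRNAs that reached 50 CPM on both sides, it had the 3rd largest. SE 4 h was also the library with the most counts, and control 4 h the one with the fewest counts and the highest reads per captured molecule. The part of depth in this change was not tested.

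At 8 h, miR-143-3p was 1.68-fold higher (log2 fold change 0.75, 1.66- to 1.70-fold). Higher calls were as frequent here, at 35.1% of 154 miRNAs, and the median log2 fold change was 0.23. miR-143-3p ranked 48th, or 23rd among the 119 that reached 50 CPM on both sides. At 24 h the difference was 1.23-fold (log2 fold change 0.29, 1.21- to 1.24-fold), under the threshold that 24.8% of 141 miRNAs passed upward, and equal to the span of the controls. There miR-143-3p ranked 51st, or 37th among the 112 that reached 50 CPM on both sides. At 2 weeks miR-143-3p was 1.56-fold higher (log2 fold change 0.64, 1.54- to 1.58-fold), which passed the threshold narrowly. There 18.6% of tested miRNAs were called higher, the median was 0.0093, and miR-143-3p ranked 22nd, or 7th among the 117 that reached 50 CPM on both sides. Against the control of 4 h in place of 24 h the 2-week log2 fold change was 0.34, below the threshold.

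Because most counts belong to 1 miRNA, the choice of scale matters for the size of these differences, and a higher level of miR-143-3p cannot be told apart from a lower level of the others. Relative to the mean of the 3 controls, SE 4 h was 3.53-fold with TMM, 2.60-fold on plain totals, 2.37-fold without miR-486b-5p and 3.10-fold with DESeq2 size factors. SE 8 h was between 1.43-fold without miR-486b-5p and 1.81-fold on plain totals, and SE 2 weeks between 1.28-fold and 1.60-fold on the same scales. These 3 libraries were above every control on those scales and on estimated molecules scaled by TMM, which differ little from TMM by construction. SE 24 h moved from 0.781-fold on plain totals to 1.10-fold with TMM, so that its direction depended on the scale.

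**Figure D4:**
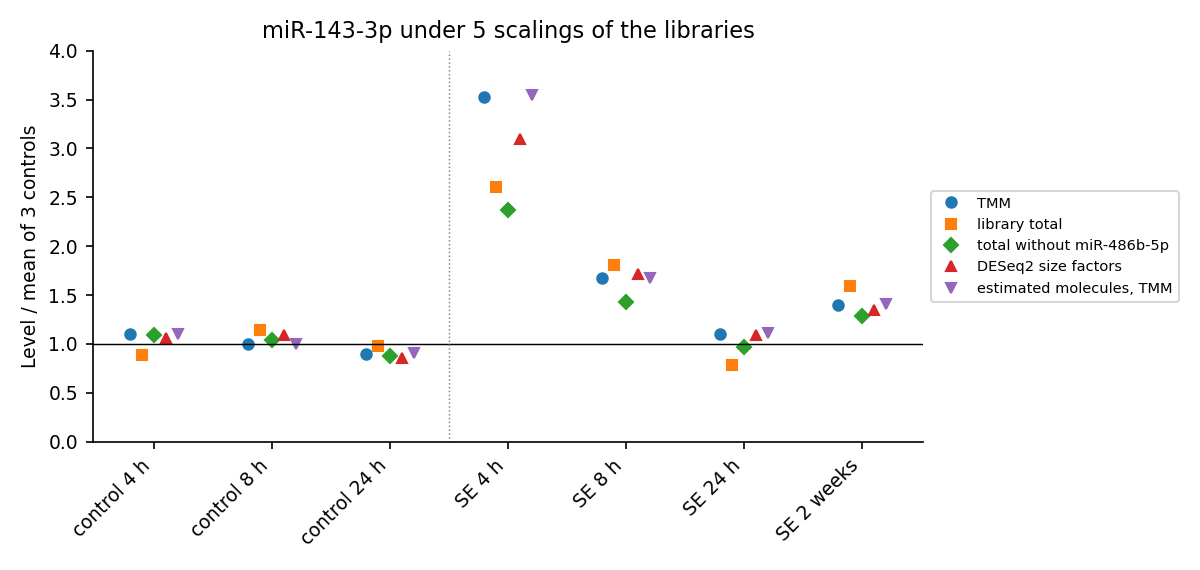
Level of miR-143-3p divided by the mean of the 3 controls (horizontal line at 1) in each library, under 5 scalings of the libraries shown by colour and shape. SE 4 h lies between 2.37 and 3.54 and SE 24 h between 0.781 and 1.11.

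The low members gave few changes that could be read. miR-145a-5p in control 4 h, at 51.6 CPM, was just over the minimum, and SE 4 h, at 12.4 CPM, was called lower with a log2 fold change of -2.05 (0.242-fold, 0.168- to 0.342-fold), as were 34.9% of the miRNAs tested. The control value was 90 counts, less than the reads of 1 captured molecule, and with the 3 controls pooled the log2 fold change was 0.077. The same miRNA was also called lower in control 8 h than in control 4 h, at -2.98, and control 24 h had 0 counts of it. miR-145a-5p did not reach 50 CPM in any other library. At 8 h it had 96 counts in SE and 28 in control, a log2 fold change of 2.02 (2.64- to 6.43-fold).

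miR-145a-3p was under 50 CPM in all libraries and was not tested. At 8 h it had 63 counts in SE and 42 in control, a 1.77-fold difference (1.18- to 2.69-fold for reads). At the other times its control had 0 counts, and SE 4 h, with 176, was the only library above 2 captured molecules. Its SE counts of 12 at 24 h and 18 at 2 weeks were below the reads of 1 captured molecule. miR-143-5p went from 68 counts in control 24 h to 0 in SE 24 h and SE 2 weeks, a step of about 1 captured molecule.

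The 3 SE libraries of 4, 8 and 24 h were also set against the 3 controls, with different time-points standing in for replicates. miR-143-3p averaged 24623 CPM in SE and 11716 CPM in control and was higher in SE at 3 of 3 time-points, or 2 of 3 on plain totals. In edgeR's quasi-likelihood test the log2 fold change was 1.07 ± 0.41 (standard error), and the Benjamini-Hochberg adjusted p = 0.340 over 137 miRNAs. None of the 137 (0%) passed an adjusted p of 0.05 in edgeR, 17 had an unadjusted p under 0.05, and 4 passed in DESeq2, where miR-143-3p had an adjusted p = 0.129. An exact two-sided permutation test over the 6 libraries gave p = 0.2, and 0.1 is the smallest p it can give. Leaving out the 4 h pair lowered the edgeR log2 fold change to 0.55. The other 3 members did not reach the level needed for the test.

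The miRNAs whose level followed miR-143-3p most closely were found by Pearson correlation of log2 CPM over the 7 libraries, among 101 miRNAs that reached 50 CPM in all of them. They were miR-10a-5p (r = 0.960), miR-101a-3p (0.916), miR-27b-3p (0.910), miR-10b-5p (0.862) and miR-22-3p (0.820). The median over the 101 was 0.124, and miR-486b-5p had 0.201. Spearman's rho for the 5 was between 0.821 and 0.964. On plain totals in place of TMM, r of miR-22-3p was 0.614 and it ranked 14th. miR-10a-5p, miR-27b-3p, miR-101a-3p and miR-10b-5p ranked 1st, 2nd, 3rd and 4th on that scale. All libraries share 1 scaling, and the 5 were picked for a high r, so these are descriptions. Their mature sequences are shown so that shared seeds can be seen, with the seed (bases 2 to 8) in capitals, 5′ to 3′, from RefSeq on GRCm38.p6.
miR-10a-5p: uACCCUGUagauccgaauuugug
miR-10b-5p: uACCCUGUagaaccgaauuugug
miR-101a-3p: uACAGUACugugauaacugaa
miR-27b-3p: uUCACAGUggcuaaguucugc
miR-22-3p: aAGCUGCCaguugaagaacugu

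miR-10a-5p and miR-10b-5p share the seed ACCCUGU and differ only at U12A, counted from the 5′ end with the base of miR-10a-5p first. Reads were counted with up to 2 mismatches, and how a read matching both was assigned is not given in the sources used here, so these rows may not be independent. They come from 2 loci, at chr11:96317186-96317208 and chr2:74726074-74726096, both on the plus strand. The other 3 have seeds of their own.

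The 5 miRNAs had smaller differences at 4 h than miR-143-3p. The log2 fold changes at 4 h were 1.33 for miR-10a-5p, 0.88 for miR-101a-3p, 0.70 for miR-27b-3p, 0.83 for miR-10b-5p and 0.31 for miR-22-3p, against 1.67 for miR-143-3p. At 8 h miR-10a-5p (0.80), miR-27b-3p (0.82) and miR-10b-5p (0.84) were slightly above miR-143-3p (0.75). The likeness rested largely on the early SE libraries. Without SE 4 h, r was between 0.679 for miR-22-3p and 0.880 for miR-10a-5p. Without SE 4 h and SE 8 h, the libraries in which miR-143-3p was farthest from its median, r was 0.692 for miR-10a-5p, 0.701 for miR-101a-3p, 0.483 for miR-27b-3p, 0.548 for miR-10b-5p and 0.084 for miR-22-3p.

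**Figure D5:**
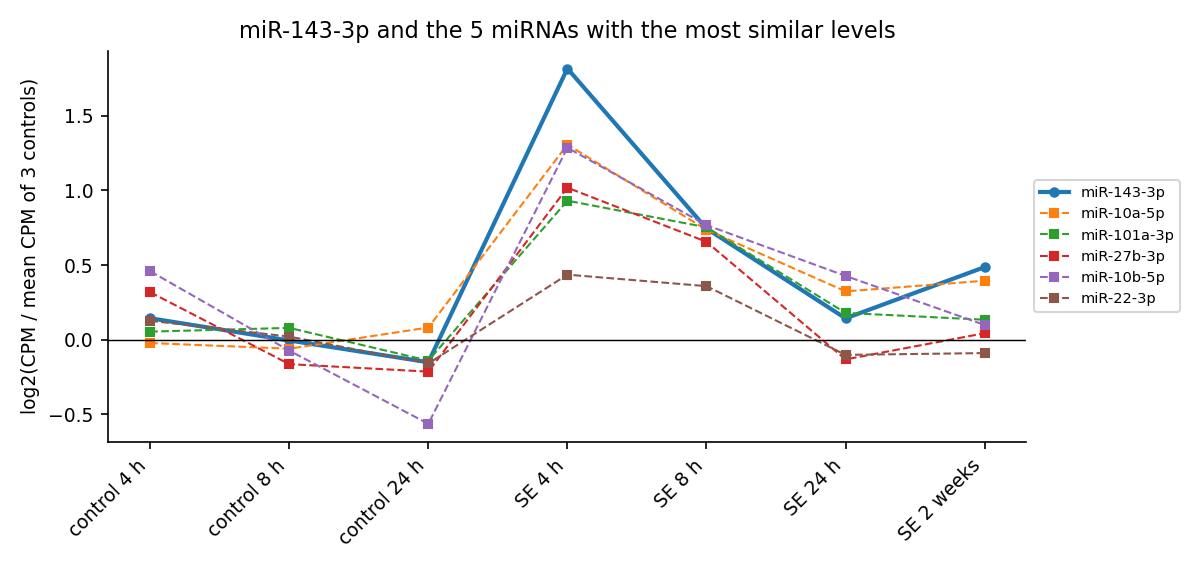
Level of miR-143-3p (thick line) and of the 5 miRNAs most like it, as log2 of CPM over the mean CPM of the 3 controls, in the 7 libraries; lines only join the points of 1 miRNA. All 6 are highest in SE 4 h, where miR-143-3p lies above the others.

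The members were last set beside a list of 19 other miRNAs known from vessel wall and mesenchymal cells, 18 of which were counted. The list had been chosen with earlier results known and includes miR-10a-5p, miR-10b-5p and miR-27b-3p. An miRNA that passes the level filter only through SE is bound to be called higher, so the list is described over members that reached 50 CPM in both libraries. At 4 h these were 11, of which 9 were called higher and 0 lower, where 32.2% of all miRNAs under this filter were called higher, and their median log2 fold change was 0.83 against 0.21 for all. Of the other 7, 2 reached the level in SE alone and 5 in neither library. At 8 h, 7 of 12 were higher and 0 lower, beside 23.5% of all (median 0.71 against 0.032). At 24 h, 2 of 11 were higher and 1 lower, beside 18.8% (median 0.12), and at 2 weeks 1 of 11 was higher and 1 lower, beside 8.55% (median -0.19), where miR-143-3p stood at 0.64. miR-126a-3p, the miRNA that defines endothelium, had log2 fold changes of 1.13, -0.40, 0.075 and -0.043, from the earliest to the latest comparison. The other arm, miR-126a-5p, had more counts, 41118 against 6678 in all. Its log2 fold changes were 0.997, 0.39, 0.17 and -0.44, so the arms differed in direction at 8 h.

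Markers of other sources were read in the same libraries. The 6 red cell miRNAs, miR-486b-5p included, summed to between 67.6% and 76.4% of counts in controls and between 62.9% and 76.5% after SE. Almost all of that sum was miR-486b-5p. miR-451a, which defines red cells, had only 3 to 81 counts per library. The 3 counts, in control 4 h, were far below the 102 reads that 1 captured molecule gave there. At 4 h, 2 of the 4 red cell miRNAs tested were called higher, beside 32.3% of all 189 tested. These were miR-144-3p and miR-144-5p, named here after their values were seen. Both passed the level filter through SE 4 h alone and could only be called higher, so no change is read from these calls. miR-144-3p had 0, 667 and 1634 counts in the controls and 1407, 774, 930 and 599 after SE, and miR-144-5p had 1, 850 and 731 counts in the controls and 779, 450, 906 and 460 after SE, so that control 4 h was the lowest library for both. Of 8 striated muscle miRNAs 4 were counted, and miR-1a-3p and miR-208a-3p were not. They summed to between 117 and 1051 CPM in controls and between 120 and 1634 CPM after SE. miR-133a-3p, a muscle marker, had log2 fold changes of 0.31, 0.86, 1.25 and 0.62 in the same order. The 5 leukocyte and platelet miRNAs summed to between 4690 and 10187 CPM in controls and between 5734 and 10029 CPM after SE. Over the 4 of them tested, the median log2 fold change was 0.59, 0.052, -0.27 and 0.089, in order of time. miR-142a-3p, a leukocyte marker, had log2 fold changes of 0.72, -0.22, -0.98 and -0.34. It was the weaker arm of its hairpin, with 4695 counts in all against 161708 of miR-142a-5p, so its changes do not stand for the list. Liver miR-122-5p had 0 counts in each of the 3 controls, and 59, 0, 1 and 55 counts in the SE libraries in order of time. The part of these sources in the level of miR-143-3p was not tested.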

How the data were processed

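Plasma was pooled in equal parts from 10 mice per library, Ago2 was immunoprecipitated and the bound small RNA sequenced. The authors trimmed and size-selected reads, used BLASTn within Chimera to place them on miRBase entries of the mouse, allowing up to 2 mismatches, and deposited raw counts for each mature miRNA. Whether a read matching several miRNAs was divided is not given in the sources used here. Groups were taken from the sample labels.

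The deposited counts were scaled by TMM over all 7 libraries in edgeR 4.0.16 (limma 3.58.1, R 4.3.3). Fold changes used a prior count of 0.125, and none is given against 0 counts. Ratios to a member with 0 counts are bounds against 3 captured molecules, chosen after the data were seen. Ratios and fold changes have exact conditional binomial 95% intervals, and levels have exact Poisson intervals. The study's own test sets the biological coefficient of variation (BCV) at 0.1 by assumption, so it was used only as an alternative. DESeq2 1.42.0 was another alternative. The value at which low counts gather was read as the peak of a smoothed density of log counts between 6 and 300 (kernel bandwidth 0.15). The fits were run on data simulated at a BCV of 0.1, below the 0.570 that edgeR estimated from the 3 SE and 3 control libraries. That simulation does not show how the fits behave at the spread of these data. Likeness, distances and figures used Python 3.11.15 with pandas 2.3.3, numpy 2.4.6, scipy 1.17.1 and matplotlib 3.10.9.

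Named miRNAs were all members, the 5 with the highest correlation to miR-143-3p, the defining markers of the lists and miR-486b-5p. Neighbouring pairs, both arms of miR-144, miR-126a-5p and miR-142a-5p were named after their values were seen. The members and lists were chosen with earlier results of these data known.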

Additional observations from a re-analysis of the deposited data

How the results depend on the processing

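The higher level of miR-143-3p at 4 h kept its call under 9 of 9 alternatives (log2 fold change 1.12 to 1.85). All 9 use the same SE 4 h library. A prior count of 2 (1.67), estimated molecules scaled by TMM (1.69) and edgeR's exact test at a BCV of 0.1 could hardly change the call. Of the 9, edgeR's exact test at a BCV of 0.4 passed only just (unadjusted p = 0.04999 against a threshold of 0.05). The common BCV that edgeR estimated from the 3 SE and 3 control libraries was 0.570, with differences between time-points included. No exact test was run at that value. At 8 h the call was lost without miR-486b-5p in the total (0.46) and with edgeR's exact test at a BCV of 0.4 (0.75). At 24 h the value turned to -0.32 on library size only, where 13 miRNAs were called higher and 75 lower, against 35 and 28, and the median moved from 0.035 to -0.64. At 2 weeks the call was lost without miR-486b-5p (0.55), with 3 controls pooled (0.52), at a BCV of 0.4 (0.64) and against control 4 h (0.34) or 8 h (0.49). miR-145a-5p at 4 h turned to 0.077 with pooled controls. In order of time, calls numbered 127, 77, 63 and 46, then 58, 23, 19 and 8 at a BCV of 0.4, 364, 302, 305 and 287 with at least 1 count, and 61, 43, 35 and 21 with 50 CPM in both libraries. At 4 h the share of calls that were higher moved from 48.0% to 72.0% with at least 1 count, 34.5% at a BCV of 0.4 and 63.9% with 50 CPM in both. The cause of these shifts was not tested. In the comparison of 3 with 3 libraries, with no filter on low counts, the log2 fold change was 1.07 (edgeR adjusted p = 0.0218, 3 of 605 called), and over the alternatives the adjusted p was between 0.0218 and 0.833. Leaving out a time-point gave 0.55 to 1.31. Shares of miR-143-3p without miR-486b-5p were 4.61%, 4.38% and 3.69% in controls and 10.0%, 6.03%, 4.08% and 5.42% after SE. The summed ratio of 1681 became 777 with both arms. Pairing SE and control by time-point, as a block, gave 0.90 (adjusted p = 0.242) and changed no call of miR-143-3p.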
